A study of Mus musculus with 6 samples.

Results

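Body position in the skin is recorded in part by transcription factors other than the Hox proteins, and 9 of them were examined here in whole skin of mice that lack JunB in the epidermis and of their control littermates. The 9 genes were Tbx15, Tbx18, Tbx5, Tbx4, En1, Pitx1, Meox2, Shox2 and Pax9, out of 23951 genes in the table. They were chosen from their known roles and by their measured FPKM values in these same 6 libraries, so the differences between the groups are given for them as a description. The count of them that passed a cut in the fit over all genes is given once beside the share of all genes, and supports nothing. All 9 were in the table and all 9 passed the filter on low values, which asked for an average of 0.1 FPKM or more across the 6 libraries. Pax9 passed it only through 1 library of the JunBΔep group.

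The skin of 3 control mice, labelled JunB +/+, and of 3 JunBΔep mice, labelled JunB dep, had been sequenced after poly(A) selection. All 6 were C57Bl/6 mice of 6 to 7 months. In JunBΔep mice the floxed Junb gene is removed by a Cre recombinase under the keratin 5 promoter, so that basal keratinocytes and their descendants lose it while fibroblasts, muscle and vessels of the same skin keep it. The JunBΔep skin was lesional, and the sources used here do not give the body site from which each piece of skin was taken. Values are FPKM, fragment counts scaled for transcript length and library size, which allow levels to be compared between genes. Differences are given on the scale of log2(FPKM + 0.5), as JunBΔep minus control, with the standard error (SE) of a limma fit over all genes.

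During embryonic development, T-box, homeobox and paired-box proteins are switched on in restricted fields of mesenchyme and ectoderm, and set whether a limb bud becomes an arm or a leg, or whether skin takes a dorsal or a ventral character. Dermal fibroblasts and some epithelia keep part of this code in the adult. A piece of skin therefore carries a mixture of position factors from its dermis, its epithelium and any muscle or fat attached to it. AP-1, the dimer to which JunB belongs, binds the sequences TGANTCA and TGACGTCA.

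Promoters of 6 of the 9 factors, Tbx18, Tbx4, En1, Meox2, Shox2 and Pax9, were matched in RefSeq, from 250 bases before to 50 bases after the start of transcription that RefSeq gives. The windows, from a table built on GRCm38.p6, were found letter for letter at 1 place each in mm9. The window of En1 is shown because it alone of the 6 held an AP-1 sequence, with 1 match to TGANTCA (written in capitals) that began 163 bases before the start, and those of Tbx4, a weakly expressed factor whose groups were separate, and Pax9, a factor raised in a single library, are shown beside it. In mm9 they lie at chr1:122498814-122499113 on the plus strand for En1, chr11:85710017-85710316 on the plus strand for Tbx4 and chr12:57796208-57796507 on the plus strand for Pax9.
En1: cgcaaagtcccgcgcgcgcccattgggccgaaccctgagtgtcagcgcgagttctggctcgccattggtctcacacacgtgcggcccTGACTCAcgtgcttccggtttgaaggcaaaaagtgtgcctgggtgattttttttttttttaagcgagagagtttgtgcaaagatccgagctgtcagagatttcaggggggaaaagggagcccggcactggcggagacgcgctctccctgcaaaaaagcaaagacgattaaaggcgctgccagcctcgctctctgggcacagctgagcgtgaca
Tbx4: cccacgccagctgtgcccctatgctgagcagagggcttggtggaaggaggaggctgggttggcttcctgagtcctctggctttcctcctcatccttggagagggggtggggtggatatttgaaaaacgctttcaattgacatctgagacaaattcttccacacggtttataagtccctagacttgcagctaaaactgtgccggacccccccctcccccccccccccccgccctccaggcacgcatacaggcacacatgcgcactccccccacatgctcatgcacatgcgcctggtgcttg
Pax9: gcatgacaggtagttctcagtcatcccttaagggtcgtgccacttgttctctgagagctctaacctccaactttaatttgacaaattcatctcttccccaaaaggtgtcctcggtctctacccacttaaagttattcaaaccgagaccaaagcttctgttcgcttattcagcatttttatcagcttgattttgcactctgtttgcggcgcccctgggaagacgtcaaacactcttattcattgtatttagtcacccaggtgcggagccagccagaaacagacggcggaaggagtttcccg
The RefSeq start lay 10343 bases inside the GENCODE gene model of Tbx4, 3704 bases inside that of Pax9 and 69 bases inside that of En1. TGANTCA, searched on both strands, occurred in 7.81% of 32851 promoter windows of the same length, and TGACGTCA occurred in 1.79% of them and in none of the 6. A missing match says only that these letters are not in the window. The GC content of the windows was 57.0% for En1, 59.0% for Tbx4 and 47.0% for Pax9, against a median of 52.7% over all windows, and En1 held 23 CpG dinucleotides against a median of 7.

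Control replicates 0, 1 and 2 had Junb levels of 59.3, 72.4 and 56.9 FPKM, and JunBΔep replicates 0, 1 and 2 had 130, 42.8 and 28.1 FPKM. In all lists of 3 values that follow, the libraries are given in this order of replicates 0, 1 and 2. The library labelled JunBΔep replicate 0 was thus above every control, and the other two JunBΔep libraries were below. The same library held 3800 FPKM summed over a list of oral and esophageal epithelium markers, against 1.96 to 17.1 FPKM in the controls. Its Krt14, the keratin of basal keratinocytes, was listed at 0, although the summed keratinocyte markers ranged over 8986 to 14920 FPKM in the controls and 9193 to 14500 FPKM in JunBΔep skin. The liver markers summed to 2706 FPKM in control replicate 0 and to 158 FPKM in the lowest control. Xist was below 0.03 FPKM in control replicates 0 and 2 and in the library labelled JunBΔep replicate 0. It was at 27.6 to 34.2 FPKM in control replicate 1 and JunBΔep replicates 1 and 2, so the groups were not balanced for it. The paper states that mice of both sexes were used, and the part of sex in the group differences was not tested. The numbers in the sample names begin with 23 or with 27, each series holds mice of both groups, and the sources used here do not give their meaning. Differences within each series are given in the order 23, 27.

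Tbx15 was the most abundant of the 9 factors and the one with the largest group difference that did not rest on 1 library. It is a T-box protein of dorsal dermis, known for setting the boundary between dark back and pale belly, and it also acts in skeletal muscle fibres and fat cells. Tbx15 stood at 28.7, 27.5 and 32.7 FPKM in the controls and at 5.26, 6.65 and 8.64 FPKM in JunBΔep skin. Every JunBΔep library was below every control, and no library of either group stood close to the other group. The group means were 29.7 ± 2.72 and 6.85 ± 1.70 FPKM (SD, n = 3 each), a 4.33-fold lower mean in JunBΔep skin and a log2 difference of -2.06 (SE 0.21). Within the sample name series the log2 difference was -2.31 and -2.04. The Tbx15 gene lies on chromosome 3 of mm9 from 99044304 to 99158182 on the plus strand. Its upstream neighbour Wars2, which encodes a mitochondrial tryptophan tRNA ligase and ends 1.2 kb away, stood at 1.50 to 1.79 FPKM in the controls and 1.71 to 2.10 FPKM in JunBΔep skin. The neighbour thus had no lower value in JunBΔep skin than in the lowest control. On the other side, Spag17 lay 531 kb away and was below the filter.

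**Figure D1:**
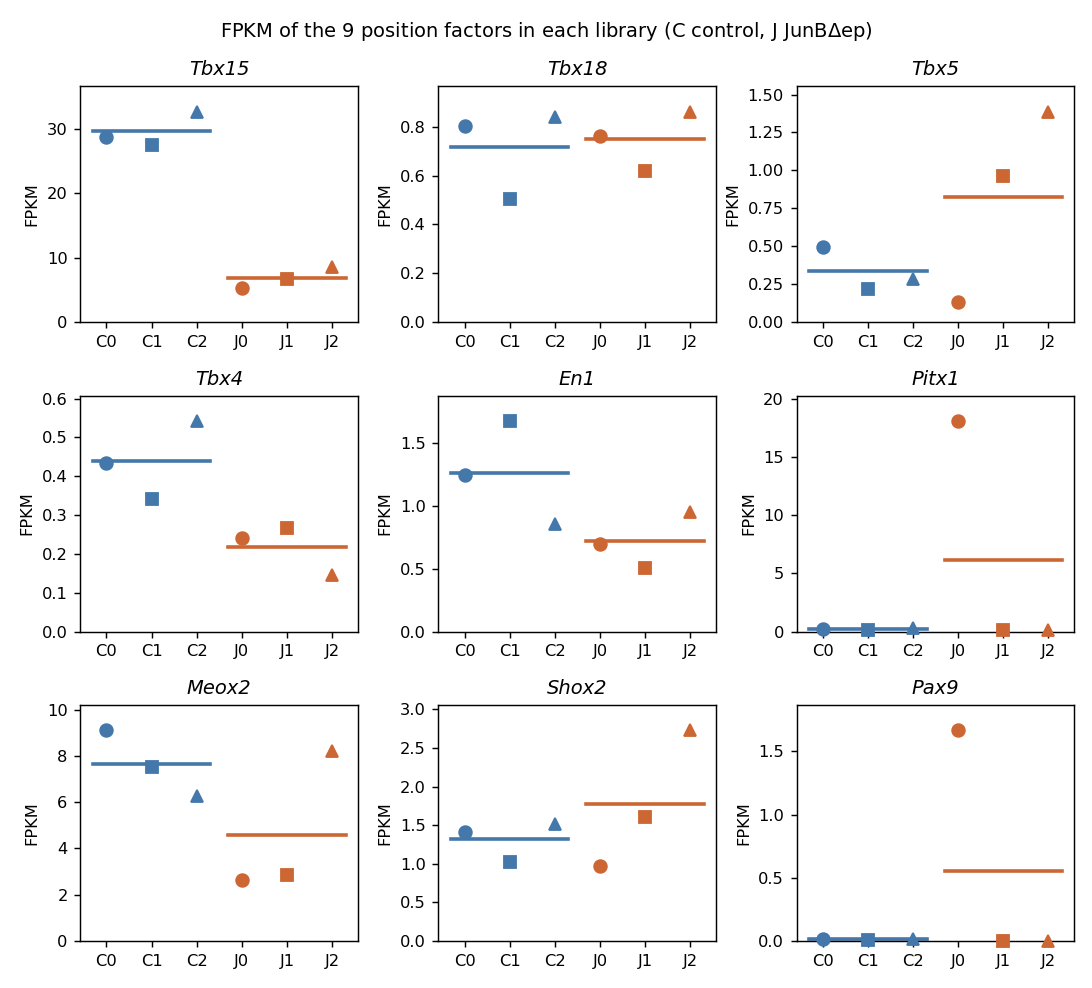
FPKM of each of the 9 position factors (vertical axes, linear and separate for each gene) in control replicates 0 to 2 (C0 to C2, blue) and JunBΔep replicates 0 to 2 (J0 to J2, orange). Points are single libraries and lines are group means; Tbx15 is at 27.5 FPKM or more in every control and at 8.64 FPKM or less in JunBΔep skin, while Pitx1 and Pax9 are raised in J0 alone.

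The markers of skeletal muscle moved in the same direction as Tbx15. Of 15 muscle markers, 14 were tested, all 14 lower in JunBΔep skin, with a median log2 difference of -2.84. Limma called 9 of them, beside 1.38% of all genes tested. The groups were separate for 13, beside 9.16% of all genes with separate groups and JunBΔep lower. The muscle markers summed to 17530 to 23950 FPKM in the controls and 1678 to 4039 FPKM in JunBΔep skin, 7.84-fold lower by the mean. Of the list, Myh7 was listed at 0 in JunBΔep replicates 0 and 1. The calls were lost when control replicate 0, 1 or 2 or JunBΔep replicate 1 was left out, and with libraries scaled to the fibroblast markers. They were also lost with the sample name series or the replicate number as a block, where limma called no gene at all. Acta1, the actin of the skeletal muscle sarcomere, was at 5542 to 6866 FPKM in the controls and 568 to 1283 FPKM in JunBΔep skin. The 10 dermal fibroblast markers were also lower on average, all 10 with a negative difference and a median of -0.65, and summed to 1096 to 2721 FPKM in the controls and 763 to 1659 FPKM in JunBΔep skin. None of the fibroblast markers was called at an adjusted p below 0.05 by limma, and 1 had an unadjusted p below 0.05.

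Set against the 2 marker sums, the difference of Tbx15 took opposite directions. Per 1000 FPKM of muscle markers it was 1.59, 1.15 and 1.87 in the controls and 2.80, 3.96 and 2.14 in JunBΔep skin, so that each JunBΔep library was higher, 1.93-fold by the mean. Per 1000 FPKM of fibroblast markers it was 10.6, 25.1 and 18.2 in the controls and 3.17, 8.71 and 8.89 in JunBΔep skin, each JunBΔep library being lower, 2.59-fold by the mean. The part of muscle and of fibroblasts in the difference of Tbx15 was not tested. In such bulk tissue, fewer cells of a type and less RNA per cell cannot be told apart.

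The genes whose profile over the 6 libraries was most like that of Tbx15 were found by the root mean square difference between centred log2 profiles, among 13741 other tested genes that averaged 1 FPKM or more. The closest 5 were Aqp4, Asb15, Amot, Lrrc14b and Hrasls, with root mean square differences of 0.12, 0.13, 0.13, 0.14 and 0.17 on the log2 scale. Since Tbx15 was lower in every JunBΔep library, the choice fixed that these genes were lower there too. Aqp4, a water channel, was at 3.31 to 4.28 FPKM in the controls and 0.237 to 0.780 FPKM in JunBΔep skin. Asb15, whose product is found in skeletal muscle, was at 2.53 to 3.00 FPKM in the controls and 0.115 to 0.683 FPKM in JunBΔep skin. Amot, an angiomotin that binds YAP, was at 4.91 to 6.00 FPKM against 0.890 to 1.53 FPKM.

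Tbx18, the closest relative of Tbx15, had overlapping groups. It marks pericytes and vascular smooth muscle in the adult, and the mesenchyme of the dermal papilla before birth. Tbx18 was at 0.802, 0.505 and 0.841 FPKM in the controls and at 0.764, 0.620 and 0.863 FPKM in JunBΔep skin. The lowest and the highest library belonged to different groups. The means were 0.716 ± 0.184 and 0.749 ± 0.122 FPKM (SD, n = 3 each), with a log2 difference of 0.05 (SE 0.21). Tbx18 lies on chromosome 9 of mm9, 87597635 to 87626095, minus strand. The pericyte and smooth muscle markers summed to 106 to 132 FPKM in the controls and 68.7 to 145 FPKM in JunBΔep skin, and the dermal papilla markers to 25.4 to 81.2 and 29.4 to 53.7 FPKM. The groups overlapped in both sums.

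The means of Tbx5 and Tbx4 were below 1 FPKM in both groups. Tbx5, which starts the forelimb bud and also patterns the heart, was at 0.496, 0.220 and 0.284 FPKM in the controls and at 0.131, 0.962 and 1.39 FPKM in JunBΔep skin. The library labelled JunBΔep replicate 0 was the lowest of the 6 and the other two JunBΔep libraries were the highest. The mean was 0.334 ± 0.145 FPKM in controls and 0.826 ± 0.639 FPKM in JunBΔep skin (SD, n = 3 each), and the log2 difference of 0.54 (SE 0.43) was -0.43 in one sample name series and 1.08 in the other. Tbx5 spans 120284672 to 120335227 of chromosome 5 on the plus strand. Tbx3, the neighbouring T-box gene 150 kb before Tbx5, marks the mammary line and the posterior limb. It was at 3.58, 2.34 and 2.28 FPKM in the controls and 3.33, 6.07 and 7.07 FPKM in JunBΔep skin, so that the 2 highest libraries were the same as for Tbx5. The Tbx3 difference of 0.86 (SE 0.34) did not pass the test of limma over all genes (adjusted p = 0.626).

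Tbx4, the hindlimb counterpart of Tbx5, was at 0.435, 0.342 and 0.543 FPKM in the controls and 0.242, 0.266 and 0.145 FPKM in JunBΔep skin. Here again every JunBΔep library was below every control, though at levels far lower than those of Tbx15. The mean was 0.440 ± 0.101 FPKM in controls and 0.217 ± 0.0637 FPKM in JunBΔep skin (SD, n = 3 each), 2.02-fold lower. The log2 difference was -0.39 (SE 0.17) with the pseudocount of 0.5 FPKM, which is larger than the control mean itself, and -0.77 with a pseudocount of 0.1 FPKM. It was -0.26 and -0.57 within the sample name series. The gene spans 85699924 to 85729599 of chromosome 11 on the plus strand. Its neighbour Brip1, a DNA helicase 142 kb away, was at 0.560 to 0.720 FPKM in the controls and 0.627 to 1.18 FPKM in JunBΔep skin.

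En1 gives ventral identity to the ectoderm of the limb and marks a lineage of dermal fibroblasts of the back. It was at 1.24, 1.68 and 0.861 FPKM in the controls and 0.700, 0.505 and 0.954 FPKM in JunBΔep skin. JunBΔep replicate 2 was above control replicate 2, so the groups overlapped. The means were 1.26 ± 0.409 and 0.720 ± 0.225 FPKM (SD, n = 3 each), with a log2 difference of -0.52 (SE 0.26) that was -0.70 and -0.17 within the sample name series. En1 spans 122498995 to 122505873 of chromosome 1 on the plus strand.

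Shox2, which lengthens the proximal limb skeleton and acts in the pacemaker of the heart, was at 1.42, 1.03 and 1.51 FPKM in the controls and at 0.969, 1.61 and 2.73 FPKM in JunBΔep skin. The library labelled JunBΔep replicate 0 was again the lowest of the 6 and the other two JunBΔep libraries were the highest. The means were 1.32 ± 0.257 and 1.77 ± 0.892 FPKM (SD, n = 3 each), and the log2 difference of 0.25 (SE 0.34) was -0.22 and 0.37 within the sample name series. Shox2 spans 66775649 to 66785693 of chromosome 3 on the minus strand and overlaps Rsrc1 on the other strand. The libraries were prepared with a strand-marking kit, but the sources used here do not say whether the counting used the strand. Rsrc1 was at 8.13 to 8.51 FPKM in the controls and 7.10 to 10.1 FPKM in JunBΔep skin.

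Meox2, a homeobox protein of somites, limb muscle and vessel endothelium, was the second most abundant factor in the controls. It was at 9.11, 7.52 and 6.29 FPKM in the controls and at 2.64, 2.86 and 8.22 FPKM in JunBΔep skin. The JunBΔep libraries were split, with replicates 0 and 1 below every control and replicate 2 between the controls. The means were 7.64 ± 1.41 and 4.57 ± 3.16 FPKM (SD, n = 3 each), and the log2 difference of -0.84 (SE 0.44) was -1.48 and -0.33 within the sample name series. Meox2 spans 37835127 to 37908372 of chromosome 12 on the plus strand. Agmo, an enzyme that cleaves ether lipids and the neighbour of Meox2 at 59.9 kb, was at 4.58, 4.72 and 2.92 FPKM in the controls and 1.25, 2.35 and 7.29 FPKM in JunBΔep skin. Both genes were lower in JunBΔep replicates 0 and 1 than in replicate 2. The adipocyte markers, whose summed level was 1883 to 5792 FPKM in the controls, summed to 81.7 FPKM for the library labelled JunBΔep replicate 0 and to 14320 FPKM for the highest JunBΔep library, and their part in these values was not tested.

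Pitx1 and Pax9 were each set apart in a single library. Pitx1 specifies the hindlimb upstream of Tbx4 and is also a factor of the oral ectoderm. The controls had 0.226, 0.167 and 0.276 FPKM of it, the library labelled JunBΔep replicate 0 had 18.2 FPKM, and both other JunBΔep libraries had 0.107 FPKM. That 1 library stood 65.7-fold above the next highest, and the other two JunBΔep libraries were the lowest of the 6. The log2 difference was 1.40 (SE 1.34) with it and -0.25 without it. Pitx1 spans 55926415 to 55937553 of chromosome 13 on the minus strand. Tbx4 was not raised beside Pitx1 in that library, where it stood at 0.242 FPKM.

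Pax9, a paired-box factor of the pharyngeal pouches, teeth, palate and oral epithelium, was at 0.0179, 0.00936 and 0.0164 FPKM in the controls. The library labelled JunBΔep replicate 0 held 1.67 FPKM, and in JunBΔep replicates 1 and 2 the gene was listed at 0. The single library stood 93.2-fold above the next highest. The log2 difference of 0.66 (SE 0.59) was thus made by 1 library, and without it the gene fell below the filter. Pax9 spans 57792754 to 57813809 of chromosome 12 on the plus strand and overlaps Slc25a21 on the other strand, a mitochondrial carrier gene that was at 0.0929 FPKM in that library and 0.0586 to 0.568 FPKM in the controls.

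In the library with raised Pitx1 and Pax9, 5 of the 8 oral and esophageal epithelium markers, Krt4, Krt13, Krt76, Sprr3 and Sox2, were above every other library. Of the other markers Krt6b and Krt84 were listed at 0 there, and Foxe1 was at 1.60 FPKM against 17.7 FPKM in JunBΔep replicate 1. Krt4 was at 1356 FPKM in it and at most 0.938 FPKM elsewhere, and Krt13 was at 1990 FPKM in it and at most 0.367 FPKM elsewhere. Sprr3, a cornified envelope protein of the esophagus, was at 398 FPKM in it and at most 0.0444 FPKM elsewhere. Sox2, which is also on the list of dermal papilla markers, was only at 1.31 FPKM in it, against 0.878 FPKM in JunBΔep replicate 1. Of 8 Hox genes set beside the factors, 6 were lower in the library labelled JunBΔep replicate 0 than in any other. These Hox genes were named after their values were seen, and no share of all genes stands beside the count. Nothing is therefore read from it. Hoxc6 was lowest in the same library, at 0.112 FPKM, against 2.58 to 6.24 FPKM in the controls and 11.5 and 12.3 FPKM in the other JunBΔep libraries. Hoxc8 stood at 0.00944 FPKM in it, against 0.446 to 1.80 FPKM in the controls, whereas Hoxd10 was at 0.979 FPKM, against 0.503 to 0.977 FPKM in the controls. The part of oral or esophageal epithelium in the values of Pitx1 and Pax9 was not tested.

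**Figure D2:**
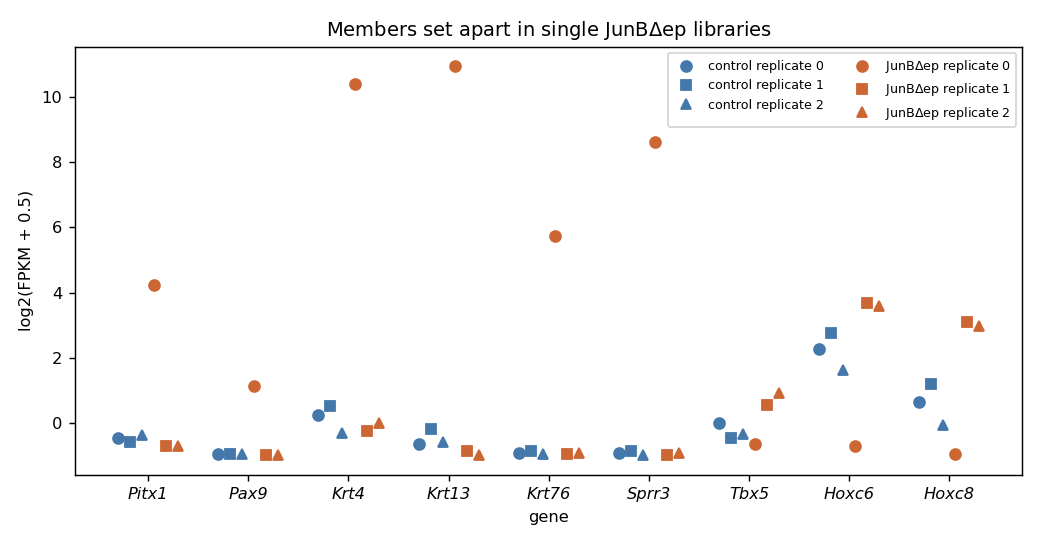
Level of Pitx1, Pax9 and Tbx5, with Krt4, Krt13, Krt76 and Sprr3 of the oral and esophageal lining and with Hoxc6 and Hoxc8, on the scale of log2(FPKM + 0.5) (vertical axis). Each point is 1 library; the library labelled JunBΔep replicate 0 (orange circles) is far above the rest for Pitx1, Pax9 and the 4 lining genes and lowest for Tbx5, Hoxc6 and Hoxc8.

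The 5 genes whose profile was most like that of Pax9, among 13742 candidates, were Pdss1, Cers3, Atp6v1a, Rgs20 and Srxn1, with root mean square differences of 0.06 to 0.15 on the log2 scale. Since Pax9 was raised in the library labelled JunBΔep replicate 0 alone, the choice fixed that these genes were highest there too. Cers3, a ceramide synthase of the epidermal barrier, reached 65.4 FPKM there, against 14.8 to 18.2 FPKM in the other libraries. Pdss1, which acts in coenzyme Q synthesis, was at 9.67 FPKM there and 1.84 to 2.21 FPKM in the others.

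In the controls the 9 factors ranked from Tbx15 and Meox2 through Shox2, En1, Tbx18, Tbx4, Tbx5 and Pitx1 down to Pax9, in order of mean FPKM. Tbx15, Meox2 and the pair of Shox2 and En1 were separated from each other without overlap of single libraries, and Shox2 and En1 overlapped. Every control was higher for En1 than any control was for Tbx18. Tbx18 overlapped Tbx4, Tbx4 overlapped Tbx5 and Tbx5 overlapped Pitx1 in the ranges of single libraries. Within each control, however, Tbx18 was above Tbx4 and Tbx5 was above Pitx1, and the order of Tbx4 and Tbx5 changed between controls. Pax9 was below every other factor in each control. In each group 4 of the 9 had a mean of at least 1 FPKM.

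Of the 9 factors, 4 had a lower and 5 a higher mean log2 level in JunBΔep skin, with a median log2 difference of 0.05, against 0.03 over all 17021 genes tested. Tbx15 and Tbx4 had groups that did not overlap, both lower in JunBΔep skin. Over all tested genes the groups did not overlap for 14.8%, and for 9.16% they did not overlap with JunBΔep lower. One factor, Tbx15, was called at an adjusted p below 0.05 by limma, a cut that 1.38% of all tested genes passed. Since the members were chosen with these values known, nothing is read from these counts. The call of Tbx15 was lost when control replicate 0, 1 or 2 or JunBΔep replicate 1 was left out, and with libraries scaled to the fibroblast markers, where its log2 difference was -1.48 and the median over all genes 0.52. It was also lost with the sample name series or the replicate number as a block (limma adjusted p = 0.0661 and 0.145). The library labelled JunBΔep replicate 0 was the lowest of the 6 for 4 factors and the highest for 2. Without it the groups did not overlap for 5 of 8 factors tested, beside 24.1% of all genes tested in those 5 libraries. Without JunBΔep replicate 2 they did not overlap for 4 of 9, beside 40.0% of all genes.

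The relatives of the 9 factors were examined by 7 lists of other position genes, 79 genes of which 61 were tested. Across them 32 differences were positive and 29 negative, with a median log2 difference of 0.02. Groups did not overlap for 10 genes with JunBΔep lower and 2 with JunBΔep higher, beside 9.16% of all genes lower and 5.62% higher. By limma 2 genes were called, Isl1 and Pitx3, both lower in JunBΔep skin, and none was called higher, beside 1.38% of all genes called. Counted by an unadjusted p below 0.05, 9 were lower and 3 were higher, beside 6.13% of all genes lower and 1.43% higher. Neither Isl1 nor Pitx3 was called when control replicate 0, 1 or 2 or JunBΔep replicate 1 was left out, or with libraries scaled to the fibroblast markers. The same held with the sample name series or the replicate number as a block.

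Of the 12 other T-box genes, 7 were below the filter, namely Tbx10, Tbx19, Tbx20, Tbx22, Eomes, Tbr1 and T, the brachyury gene. Tbx1, the factor of pharyngeal arches and hair follicle stem cells, was the highest of them, at 18.6, 30.0 and 30.3 FPKM in the controls and 10.3, 64.9 and 18.3 FPKM in JunBΔep skin. The JunBΔep libraries lay on both sides of the controls. Tbx2, the paralog of Tbx3, was at 1.50 to 2.43 FPKM in the controls and 0.615 to 2.78 FPKM in JunBΔep skin, and Tbx21, the factor of T helper 1 cells, was at 0.198 to 0.370 and 0.126 to 0.393 FPKM. Tbx6, the T-box factor of paraxial mesoderm, was at 2.17 to 2.95 FPKM in the controls and 3.20 to 3.95 FPKM in JunBΔep skin. Its groups did not overlap, and the difference of 0.43 did not pass the limma test (adjusted p = 0.722).

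The paralogs of the homeobox and paired-box members were read from the same fit. Pitx3, a factor of lens and muscle and a paralog of Pitx1, fell from 2.00, 1.92 and 1.66 FPKM in the controls to 0.389, 0.132 and 0.468 FPKM in JunBΔep skin (log2 difference -1.53, SE 0.23, limma adjusted p = 0.0443). Meox1 was at 2.11 to 3.21 FPKM in the controls and 6.45, 1.55 and 2.73 FPKM in JunBΔep skin, Pax1 was at 0.192 to 0.794 and 0.144 to 0.779 FPKM, and En2 was below the filter.

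**Figure D3:**
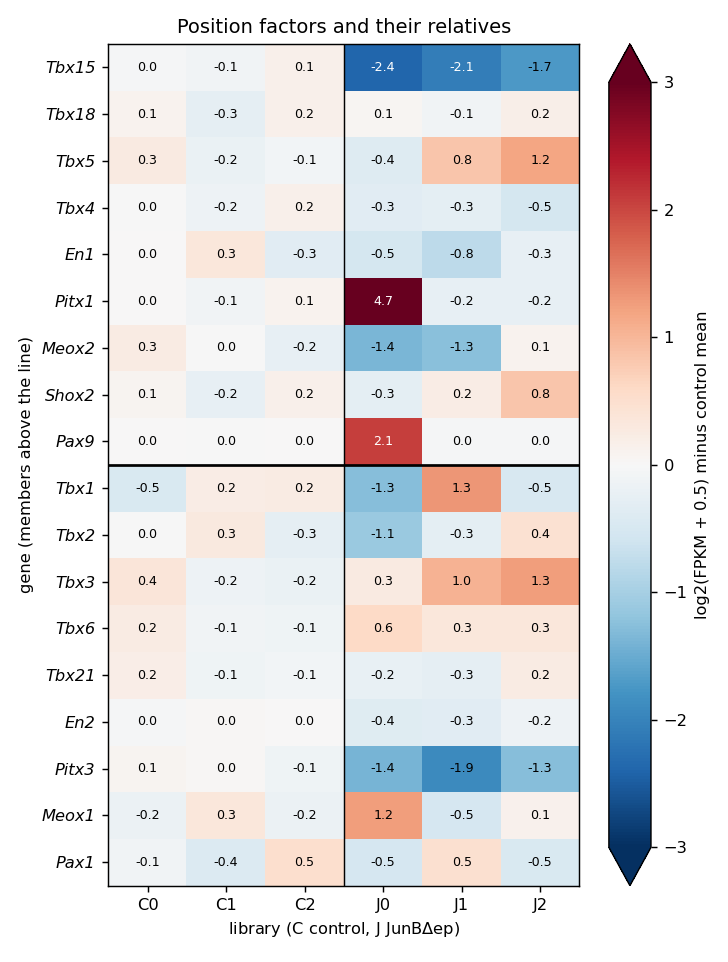
Difference of each library from the control mean on the scale of log2(FPKM + 0.5) (colour, with the value in each cell) for the 9 factors (above the horizontal line) and for 9 T-box, En, Pitx, Meox and Pax relatives (below it). Columns C0 to C2 are controls and J0 to J2 are JunBΔep libraries; Tbx15 and Pitx3 are lower in all 3 JunBΔep libraries, whereas Pitx1 is higher in J0 alone.

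Eya1, Isl1, Emx2 and Pknox2, like Pitx3, had separate groups and a log2 difference of at least 1 in size, lower in JunBΔep skin. Eya1, a transcriptional coactivator and phosphatase of somites and muscle, was at 1.58 to 2.02 FPKM in the controls and 0.382 to 0.664 FPKM in JunBΔep skin (adjusted p = 0.0647 by limma). Isl1, a LIM homeobox factor of the hindlimb field and of motor neurons, fell from 3.24, 2.50 and 2.93 FPKM to 0.823, 0.479 and 0.425 FPKM in JunBΔep skin (log2 difference -1.67, SE 0.23, limma adjusted p = 0.0343). Emx2, a homeobox factor of the limb girdle and the urogenital ridge, was at 2.22 to 2.87 FPKM in the controls and 0.520 to 0.835 FPKM in JunBΔep skin (limma adjusted p = 0.0626). Pknox2, a TALE homeobox cofactor of Hox and Pbx proteins, was at 4.33 to 4.59 FPKM against 1.32 to 1.87 FPKM (limma adjusted p = 0.054).

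Per 1000 FPKM of muscle markers these genes were no lower in JunBΔep skin by the mean, with ratios of JunBΔep to control of 2.51 for Eya1, 1.84 for Isl1, 2.46 for Emx2, 1.40 for Pitx3 and 2.95 for Pknox2. Per 1000 FPKM of fibroblast markers the means were lower, by 2.06-fold for Eya1, 3.27-fold for Isl1, 2.19-fold for Emx2, 3.84-fold for Pitx3 and 1.80-fold for Pknox2. Single libraries of the 2 groups overlapped per muscle marker for Eya1, Isl1 and Pitx3, and per fibroblast marker for Eya1 and Pknox2, unlike those of Tbx15. The part of muscle and of fibroblasts in the difference of these genes was not tested.

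**Figure D4:**
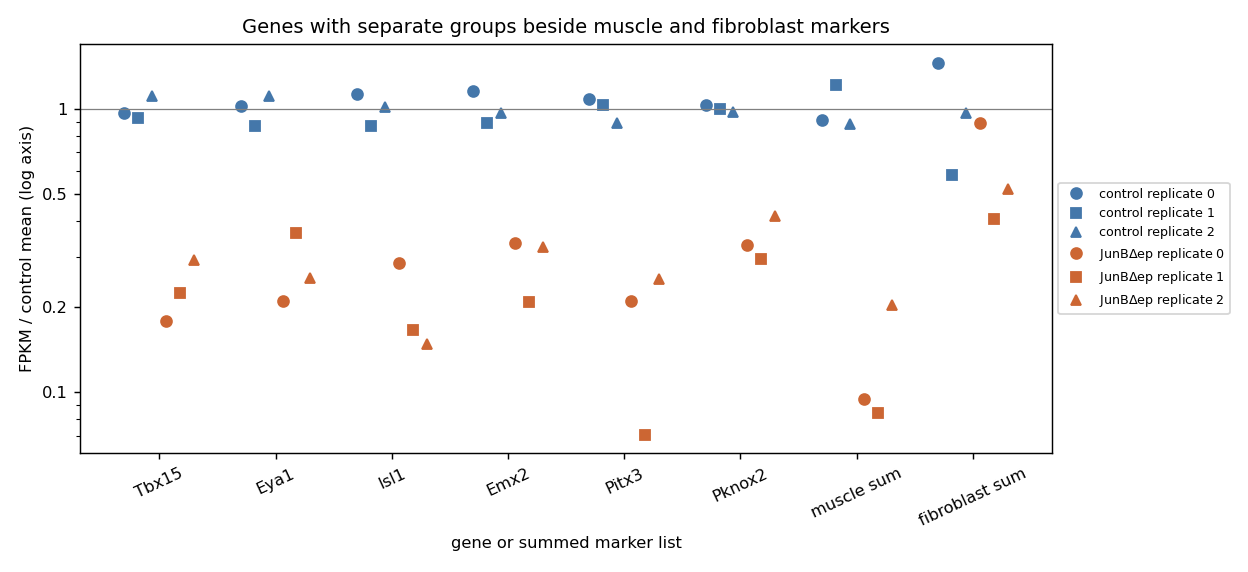
FPKM relative to the control mean (vertical axis, log scale) of Tbx15, of Eya1, Isl1, Emx2, Pitx3 and Pknox2, and of the summed muscle and fibroblast markers. Points are single libraries, control in blue and JunBΔep in orange; all 3 JunBΔep libraries are below every control for these genes and for the muscle sum, whereas the fibroblast sums overlap.

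Dlx3, Pbx2, Irx3, Twist1 and Foxc1 were each the most abundant gene of their list. Irx3, an Iroquois factor of proximal limb, was at 13.2 to 16.1 FPKM in the controls and 35.9, 13.7 and 18.3 FPKM in JunBΔep skin. Twist1, a helix-loop-helix factor of mesenchyme, was at 12.2 to 16.5 FPKM in the controls and 5.05, 8.51 and 14.6 FPKM in JunBΔep skin. Pbx2, a TALE cofactor, was at 16.0 to 16.5 FPKM in the controls and 15.0 to 26.1 FPKM in JunBΔep skin. Foxc1, a forkhead factor of somites and the quiescent hair follicle stem cell, was at 8.56 to 16.7 FPKM in the controls and 4.49 to 23.6 FPKM in JunBΔep skin. The groups overlapped in all of these genes.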

How the data were processed

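RNA of whole skin from 3 control and 3 JunBΔep mice was measured by poly(A) RNA-seq. The deposited table holds FPKM per gene, which the authors made from reads aligned to mm9; the submitters' processing notes name FastQC, TopHat2 2.0.10, Bowtie 1.0.0, SAMtools 0.1.19 and Cufflinks, with no role given. The number of reads per library is not known from these values, so no counting interval is given. Groups were taken from the genotype labels and the mice were littermates, each replicate being a separate animal.

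Genes averaging 0.1 FPKM or more were fitted on log2(FPKM + 0.5) in R 4.3.3. The fit was that of limma 3.58.1 with its intensity trend, and p-values were adjusted by Benjamini-Hochberg over all 17021 genes tested. The fit was also tested on simulated data, and nothing about these 6 libraries is read from that test. An exact permutation test of 3 against 3 libraries cannot go below p = 0.1, so it was not used. Summaries used Python 3.11.15 with pandas 2.3.3, and figures matplotlib 3.10.9. The members and all gene lists were chosen with earlier results of these data known. Genes named were the members, all T-box and paralog relatives, other list genes that were called, that had separate groups and a log2 difference of at least 1, or that were the highest of their list, neighbouring genes, the 5 genes most like Tbx15 and Pax9, Junb, and marker genes where their level stands beside a result. Some genes that meet this rule are not reported here. Hox genes and other genes outside this rule were named after their values were seen. Alternatives were 2 pseudocounts, 2 filters, 4 scalings, no trend, 2 blocks and each library left out. Same-numbered libraries were checked for pairing.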

Additional observations from a re-analysis of the deposited data

How the results depend on the processing

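Under the 17 alternatives the log2 difference of Tbx15 ranged from -2.23 to -1.48. The differences of Tbx15, Tbx4, En1, Meox2 and Tbx5 kept their direction wherever the gene was tested. Within the sample name series, however, that of Tbx5 was -0.43 and 1.08. Pax9 fell below the filter without JunBΔep replicate 0, the only library in which it was raised. Its direction, positive in every fit that tested it, could thus not be tested without that library. The difference of Pitx1 became -0.25 without JunBΔep replicate 0, that of Shox2 -0.04 without JunBΔep replicate 2, and that of Tbx18 -0.09 without control replicate 1 and -0.02 without JunBΔep replicate 2. With a filter of at least 1 FPKM, 4 members were left, of which 2 were lower and 1 had separate groups, beside 14.8% of the 13742 genes tested. Leaving out each library gave 4 to 6 members lower, 2 to 5 with separate groups, beside 18.1% to 40.0% of all genes tested in the same libraries, and 0 to 1 called. Separate groups were not recomputed under quantile normalization.

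Of the list genes, 2 were called by limma, against 1 with a pseudocount of 0.1 FPKM, 3 with a pseudocount of 1 FPKM, 1 with the filter of at least 1 FPKM, 1 with quantile normalization, 1 with libraries rescaled to the same sum, 5 without the trend, and 0 to 2 with each library left out. Of all genes, 235 were called, and 0 to 254 with each library left out: 0 without control replicate 0, 1 or 2 or JunBΔep replicate 1, with 793, 1041, 1031 and 1090 genes at an unadjusted p below 0.05, and 135 without JunBΔep replicate 0. Scaling to the fibroblast markers moved the median of all genes from 0.03 to 0.52 and left 0 genes called, with 1486 at an unadjusted p below 0.05, so that 0 members and 0 list genes were called.

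The correlations of same-numbered deviations were 0.12, -0.23 and -0.43, which gave no sign that the replicate numbers pair the libraries. With 3 libraries in each group, these values cannot exclude such a pairing. With the number as a block 0 genes, 0 members and 0 list genes were called, and 972 genes had an unadjusted p below 0.05. With the sample name series as a block 0 genes were called as well, and 1523 had an unadjusted p below 0.05. The depth of the libraries is unknown, and 3 libraries in each group limit the precision.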

Other observations

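Other position genes followed a different pattern from the 9 factors, in which JunBΔep replicate 1 was the highest of the 6 libraries and control replicate 2 the next. This order held for 15 of the 61 tested genes of the position lists, beside 5.95% of all 17021 genes tested, and it was noticed after the values were seen. Dlx3, a homeobox factor of hair follicle differentiation, had 12.9, 10.4 and 71.5 FPKM in the controls and 15.0, 217 and 17.7 FPKM in JunBΔep skin, each in the order of replicates 0, 1 and 2. Msx2, a homeobox factor of the hair shaft, was at 2.18, 2.55 and 29.3 FPKM in the controls and 2.62, 89.5 and 5.13 FPKM in JunBΔep skin. Lef1, a transcription factor of the Wnt pathway in the hair matrix, was at 0.427, 1.42 and 10.9 FPKM in the controls and 1.19, 39.2 and 2.02 FPKM in JunBΔep skin. Shh, the ligand of growing follicles, was at 0.112, 0.0994 and 3.28 FPKM in the controls and 0.310, 16.7 and 0.681 FPKM in JunBΔep skin. In each of these 4 genes 1 library of each group stood above the rest of its group, and the groups overlapped. None of the 9 factors had this order.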
